A study of Mus musculus with 4 samples.

Results

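The genes described here are 41 members of the nuclear receptor family, taken from a list of symbols and found in the mouse annotation among 22367 protein-coding genes. All 41 were located, on 19 chromosomes. Their positions were set against maps of lamina-associated domains (LADs), made by DamID in primary hepatocytes of WT mice and of *Tm7sf2*-KO mice. The KO mice lack NET47, a sterol reductase with a pool in the nuclear envelope (NE). In most cell types tested, its main pool is in the endoplasmic reticulum. The hepatocytes came from C57BL/6 mice aged 12 to 16 weeks. All of the cells were cultured with dexamethasone, insulin and EGF, and a lentivirus was applied for 24 h that carried either Dam methylase fused to lamin B1 or Dam methylase alone, the control for accessibility. The study's methods place the harvest 60 h after transduction. Each of the 4 libraries, 1 for each construct and genotype, held pooled DNA of 4 mice, so a difference between the genotypes below has no replicate check, no error and no p-value.

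Nuclear receptors are transcription factors that bind DNA at response elements. Many are switched on by small lipid-soluble ligands such as steroid and thyroid hormones, retinoids, fatty acids, oxysterols and bile acids, and many bind DNA as a pair with a retinoid X receptor. In hepatocytes they govern the synthesis and disposal of cholesterol and bile acids, fat oxidation, glucose output and the clearance of drugs. Genes in LADs, the stretches of chromatin that touch the lamina under the inner nuclear membrane, are mostly poor in transcription.

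The deposited lists hold the borders of LADs and of differing regions (DRs), with no signal or read number, so the depth behind a border and its precision are not known from them. The study's text gives fewer usable reads for KO than for WT. The KO list holds 1.98-fold as many LADs as the WT list (16076 and 8107), whereas the bases covered are close (1490 and 1472 Mb). The part of depth and of LAD number in the results for the receptor genes was not tested. The deletion in *Tm7sf2* cannot be checked from borders, nor can the hepatocyte label be checked against marker levels, since the lists hold no expression. Of 8 listed hepatocyte marker genes 7 were located, and 6 of these were in the interior class II defined below. Among markers of other cell types 3 of 9 were, and among all protein-coding genes 56.6%. These small counts of positions do not check the label.

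A gene was called PI (peripheral in WT, internal in KO) when its span shared at least 1 base with a WT-only DR, and IP (internal in WT, peripheral in KO) when it shared at least 1 base with a KO-only DR. AMB genes met both kinds of DR. PP genes met LADs of both genotypes but no DR, and all other genes were II. No II member met a LAD of either genotype. By this rule a gene elsewhere in the genome that met a LAD of 1 genotype only, without a DR, was also II. Most of the receptor genes, 27 of 41 (65.9%), were II, as were 56.6% of all protein-coding genes. *Rorb*, *Hnf4g*, *Rxrg* and *Pgr* were PI, 9.76% of the members against 5.43% of all genes. *Thrb*, *Nr1h5*, *Nr2f1*, *Esr2*, *Esrrb*, *Nr3c2* and *Nr4a2* were IP, 17.1% of the members against 17.1% of all genes, so this share sat at the background. *Esr1* was the 1 AMB member, against 2.96% of all genes. *Nr4a3* and *Nr0b1* were PP, 4.88% of the members against 17.9% of all genes. These calls rest on parts of genes. Over the IP members, the share of the span inside a KO-only DR ran from 4.57% to 54.5% with a median of 20.8%, and over all IP genes the median was 42.8%. Over the PI members, the share inside a WT-only DR ran from 8.66% to 53.8% with a median of 28.7%, and over all PI genes the median was 34.9%.

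**Figure D1:**
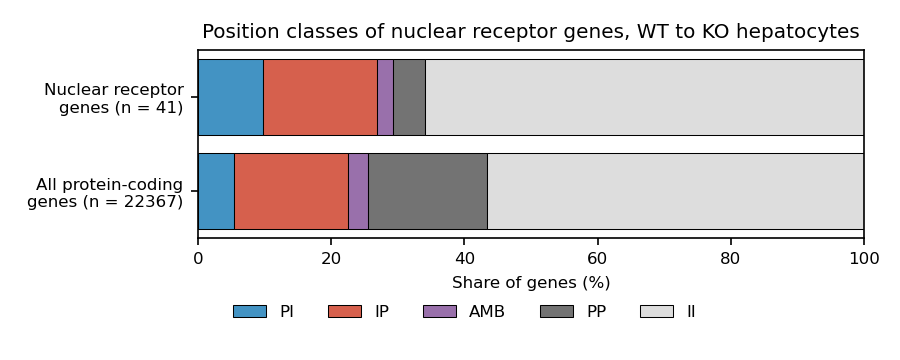
Share of genes in each position class (stacked horizontal bars, percent of genes) for the 41 receptor genes and for all 22367 protein-coding genes. The II segment is the widest in both bars, at 65.9% and 56.6%, and the IP segment is 17.1% wide in both.

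Gene length moved with these classes. The 9 members over 100 kb were *Thrb*, *Pparg*, *Rorb*, *Hnf4g*, *Esr1*, *Esrrb*, *Nr3c2*, *Nr5a2* and *Nr6a1*, and 6 of the 9 met a DR. Among all protein-coding genes over 100 kb, 67.8% did. Of the 32 shorter members, 6 met a DR, and 20.4% of all shorter genes did. Both counts sat near their background. The median span was 46.5 kb over the members and 15.4 kb over all genes.

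The 40 DR borders that fell inside receptor genes all lay at GATC, the tetranucleotide that Dam methylates and *DpnI* cuts. The study set its signal per *DpnI* fragment, so borders at GATC follow from the method. Over the genome a GATC occurred once in 414 bases, and 99.3% of all LAD borders in the lists fell on one. The windows below are shown because each holds a DR border inside a member, taken from the plus strand of NCBIM37 (the assembly also called mm9) with 30 bases on both sides of the border GATC, and GATC is in capitals. None of these windows, which cover only some of the 40 borders, overlaps an annotated exon. Both borders are given for the KO-only DRs that are a whole KO LAD within *Esr2* (chr12:77259260-77259323 and chr12:77271077-77271140) and *Esrrb* (chr12:87759220-87759283 and chr12:87778785-87778848).
*Esr2* lower border: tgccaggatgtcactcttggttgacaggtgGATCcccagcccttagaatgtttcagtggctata
*Esr2* upper border: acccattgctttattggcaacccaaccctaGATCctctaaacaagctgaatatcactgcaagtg
*Esrrb* lower border: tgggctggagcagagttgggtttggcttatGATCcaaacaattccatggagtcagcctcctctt
*Esrrb* upper border: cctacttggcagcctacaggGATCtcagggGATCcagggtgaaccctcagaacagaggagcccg
The WT-only DR within *Rxrg* had its borders in the windows chr1:169550575-169550638 and chr1:169560718-169560781.
*Rxrg* lower border: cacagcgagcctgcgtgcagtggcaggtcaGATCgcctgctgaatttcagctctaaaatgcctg
*Rxrg* upper border: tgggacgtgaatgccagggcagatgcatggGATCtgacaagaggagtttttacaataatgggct
In *Thrb* (chr14:18510682-18510745), *Nr1h5* (chr3:102752294-102752357), *Nr2f1* (chr13:78330405-78330468) and *Nr4a2* (chr2:56965021-56965084) the upper border of a KO-only DR fell within the gene.
*Thrb* upper border: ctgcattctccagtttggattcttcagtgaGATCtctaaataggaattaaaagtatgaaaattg
*Nr1h5* upper border: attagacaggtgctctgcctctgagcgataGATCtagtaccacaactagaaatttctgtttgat
*Nr2f1* upper border: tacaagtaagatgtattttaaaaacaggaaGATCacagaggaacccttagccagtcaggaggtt
*Nr4a2* upper border: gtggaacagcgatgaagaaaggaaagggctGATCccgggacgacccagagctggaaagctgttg
The *Esrrb* upper window holds a further GATC before the border, so GATC sites can be closer together than the windows are long. The 23 DRs on members held from 22 to 233 GATC sites each over their whole length. The part inside the member held from 7 (*Nr2f1*) to 124, with a median of 41, and 12 in *Nr1h5* and in *Nr4a2*. The lists do not say how many of these sites carried reads.

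Of the 10 receptors for hormones and vitamins, 5 met a DR. Over all 41 members 29.3% did and over all protein-coding genes 25.5%, and 3 of the 5 (*Thrb*, *Esr1* and *Nr3c2*) are over 100 kb, where 67.8% of all genes met one. *Thrb*, the main thyroid hormone receptor of the liver, spans chromosome 14 from 18493474 to 18870602 (377.1 kb) on the plus strand. Its share in LADs was 0.889% in WT and 7.47% in KO. The 5′ end lay 46.2 kb from the nearest LAD in WT and inside a LAD in KO, through a KO-only DR of 63.5 kb (18447239 to 18510714) that extended an upstream LAD of WT into the first 17.2 kb of the gene. This holds for 1 of the 3 annotated start sites of protein-coding transcripts, and the transcript with the most exonic bases starts past that DR. The 3′ end touched a LAD in both genotypes. Exon 7 met it in both and exon 6 in KO only, where an exon counts as in a LAD, here and below, if at least 1 of its bases is.

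*Thrb* was the only member with its 5′ end in a DR, and that of *Rxrg* lay in a LAD in both genotypes. The 300 bases before these ends are shown on the plus strand, the coding strand of both genes, with GATC in capitals. They are chr14:18493174-18493473 and chr1:169528215-169528514 in NCBIM37.
*Thrb* upstream: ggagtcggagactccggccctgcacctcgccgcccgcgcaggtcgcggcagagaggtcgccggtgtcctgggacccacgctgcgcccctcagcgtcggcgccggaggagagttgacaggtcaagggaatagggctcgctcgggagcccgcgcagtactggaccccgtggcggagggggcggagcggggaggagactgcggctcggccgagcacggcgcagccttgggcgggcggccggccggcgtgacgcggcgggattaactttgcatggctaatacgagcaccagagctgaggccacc
*Rxrg* upstream: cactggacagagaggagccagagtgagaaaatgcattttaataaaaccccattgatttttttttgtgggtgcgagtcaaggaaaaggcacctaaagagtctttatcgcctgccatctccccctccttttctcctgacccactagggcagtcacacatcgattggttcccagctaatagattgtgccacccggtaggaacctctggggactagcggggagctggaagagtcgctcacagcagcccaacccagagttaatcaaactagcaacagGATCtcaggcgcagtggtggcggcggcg
The *Thrb* stretch holds 0 GATC and the *Rxrg* stretch holds 1. Among the other members with the 5′ end in a LAD in KO only, *Hnf4g* and *Pgr* had 1 each and *Nr0b1* had 0. GATC, which reads the same on both strands, was found in the 300 bases before the start of 46.7% of all protein-coding genes and of 17 of the 41 members.

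*Esr1*, the estrogen receptor alpha gene, was the longest member at 394.0 kb (chromosome 10 from 5340927 to 5734948, minus strand). LADs covered 74.0% of it in WT and 90.9% in KO. It met 6 LADs in WT and 2 in KO, of 141 and 324 kb, and the joins gave 2 KO-only DRs, of 25.2 kb with exon 3 and 23.9 kb with the noncoding exon 2. A WT-only DR of 11.4 kb held exon 8. The gene's 5′ end stayed outside, 21.2 kb from a LAD in WT and 22.4 kb in KO. An inner start site of a protein-coding transcript, at 5636386, lay in a LAD in KO only.

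*Esr2*, the gene of estrogen receptor beta (chromosome 12 from 77221406 to 77278246, minus strand, 56.8 kb), met no LAD in WT, where the nearest lay 774 kb from its start. In KO a LAD of 11.8 kb lay wholly inside it, covered 20.8% of the span and held exons 2 to 4 of 10. The 5′ end was 7.14 kb from that LAD, and an inner start site of a protein-coding transcript, at 77268702, lay inside it. The estrogen receptors thus both gained LAD bases in KO, *Esr1* from a gene already mostly in LADs and *Esr2* from one far from any LAD.

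*Nr3c2*, the mineralocorticoid receptor gene (chromosome 8 from 79423341 to 79768911, plus strand, 345.6 kb), had the largest gain of LAD share among the members. LADs covered 3.89% in WT and 58.4% in KO. The WT share came from 1 LAD of 13.5 kb over exons 5 and 6. In KO the gene met 5 LADs, and 6 KO-only DRs together held 54.5% of the span. Of its 9 exons, 5 were in a LAD in KO only, 2 in both and 2 in neither. The start lay 8.35 kb from a LAD in WT and 0.983 kb in KO, outside in both.

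*Pgr*, the progesterone receptor gene (chromosome 9 from 8900419 to 8965425, plus strand, 65.0 kb), was called PI through its 3′ end while its 5′ end went the other way. A WT-only DR of 37.5 kb covered 8.66% of the gene and held exons 7 and 8. Exons 1 and 2 lay in a LAD in KO only, and the start moved from 0.663 kb outside a LAD in WT to inside a KO LAD of 253 kb. The total share in LADs was 86.3% in WT and 91.3% in KO, so the class PI did not mean fewer LAD bases here.

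The other 5 hormone and vitamin receptor genes were II. *Nr3c1*, the glucocorticoid receptor gene, whose ligand dexamethasone was in the medium of both genotypes, lay 449 kb from a LAD in WT and 12.8 kb from a small KO LAD of 15.1 kb upstream of its start, which was the shortest KO distance of any II member. *Vdr*, the vitamin D receptor gene, lay 269 kb from a LAD in WT and 180 kb in KO. *Thra*, *Rara* and *Rarg*, genes of a thyroid hormone receptor and of retinoic acid receptors, lay between 385 and 603 kb from a LAD in WT and between 248 and 442 kb in KO. *Thra* and *Rara* are 159 kb apart on chromosome 11 and had the same nearest LADs, so their values are not independent.

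**Figure D2:**
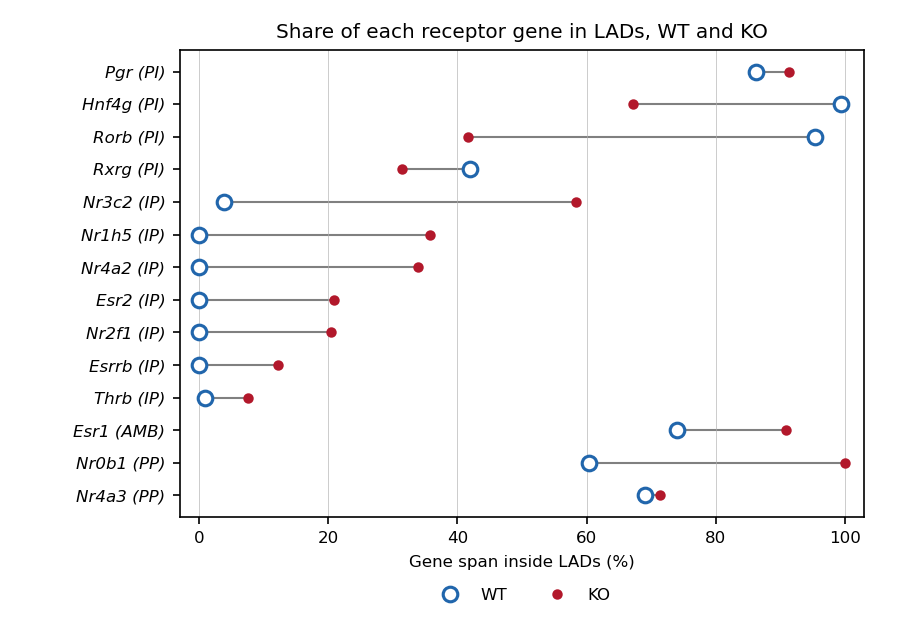
Percent of the gene span in LADs of WT and of KO for the 14 receptor genes that met a LAD or DR, with WT (open circle) and KO (filled circle) joined by a line for each gene. *Nr3c2* has the longest line to the right, from 3.89% in WT to 58.4% in KO, and *Rorb* the longest to the left, from 95.4% to 41.6%.

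Of the 9 genes of lipid, bile acid and xenobiotic sensors, 8 were II, beside 56.6% of all protein-coding genes, a difference that was not tested. The exception was *Nr1h5*, the gene of FXR-beta (chromosome 3 from 102743581 to 102768056, minus strand, 24.5 kb), a receptor reported to bind lanosterol in rodents. It met no LAD in WT. A KO LAD of 91.3 kb with no WT LAD in it covered 35.7% of the gene at its 3′ end, with exons 8 to 11 of 11. Its start lay 523 kb from a LAD in WT and 15.6 kb in KO.

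*Nr1h4*, which encodes the main bile acid receptor FXR, lay 132 kb from a LAD in WT and 122 kb in KO. *Nr1h3* and *Nr1h2*, genes of the oxysterol receptors LXR-alpha and LXR-beta, lay 773 and 348 kb from a LAD in WT and 240 and 166 kb in KO. *Nr1i2* (PXR) and *Nr1i3* (CAR), which switch on drug clearance genes, lay 348 and 292 kb away in WT and 205 and 265 kb in KO. *Ppara*, the driver of fat oxidation in liver, lay 649 kb away in WT and 565 kb in KO, and *Pparg*, the receptor of fat cell formation, 206 and 196 kb. *Ppard* had the longest WT distance of any member, 4324 kb, and lay 344 kb from a LAD in KO. All 8 starts were nearer to a LAD in KO, which was also so for most II genes of the genome, as given below.

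The 3 retinoid X receptors, the shared partners of many other receptors, differed in position. *Rxra*, the main form in liver, lay 3060 kb from a LAD in WT and 329 kb in KO. *Rxrb* lay 484 kb from a LAD in WT and 52.6 kb in KO. *Rxrg* (chromosome 1 from 169528515 to 169569754, plus strand, 41.2 kb), known mainly from muscle and brain, was PI and was the 1 member with its 5′ end in a LAD of both genotypes. LADs covered 42.0% of it in WT and 31.4% in KO. A WT LAD of 10.1 kb over exons 3 and 4 had no counterpart in KO, whereas the LAD over its 5′ end reached further into the gene in KO, to 169541467 from 169535677.

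Among the 17 orphan receptor genes, 11 were II, beside 56.6% of all protein-coding genes. *Rorb*, which acts in retina, brain and the circadian system, spans chromosome 19 from 19005095 to 19185686 on the minus strand (180.6 kb) and had the largest loss of LAD share among the members. It lay in 1 WT LAD of 211 kb that covered 95.4% of it. In KO, 3 LADs of 32.8, 27.5 and 14.9 kb covered 41.6%, with 3 WT-only DRs of 57.2, 11.7 and 29.1 kb between and beside them. The longest DR held exons 3 to 10, the 3′ end of the gene. The start stayed outside LADs, 8.22 kb away in WT and 6.28 kb in KO. The study's text reports a marked loss of NE contacts for chromosome 19. The part of this in the values of *Rorb* was not tested.

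*Hnf4g*, a relative of the hepatocyte factor HNF4-alpha known from gut and kidney, lies on chromosome 3 from 3508030 to 3659775 on the plus strand (151.7 kb). A WT LAD of 249 kb covered 99.4% of it. In KO the same stretch held 4 LADs that covered 67.1%, with WT-only DRs of 10.8, 19.3 and 19.7 kb between them. The last of these 3 DRs held exons 2 and 3, and 7 of the 10 exons stayed in a LAD of both genotypes. The 5′ end lay 0.953 kb outside the WT LAD and inside a KO LAD, and an inner start site at 3634150 was in a LAD in WT only.

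**Figure D3:**
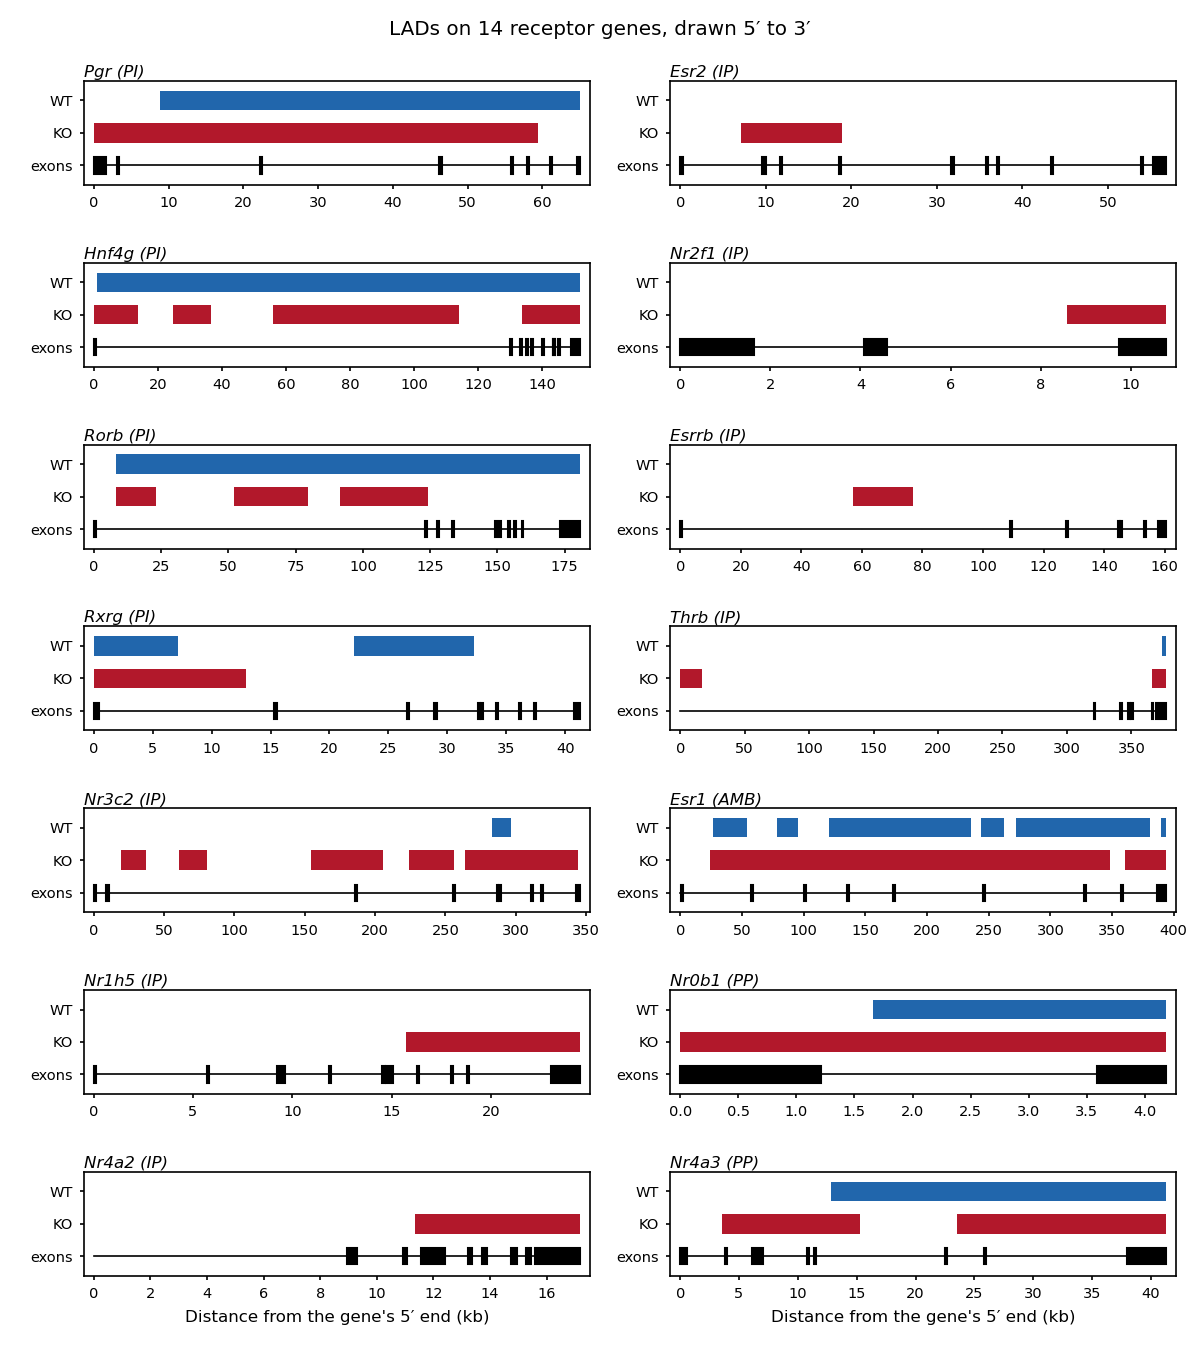
Maps of the 14 receptor genes that met a LAD or DR, with LADs of WT (blue bars) and KO (red bars) and the exons of the transcript with the most exonic bases (black), against distance in kb from the 5′ end of each gene. The WT bar over *Rorb* is whole where KO has 3 bars, and over *Nr3c2* WT has 1 short bar where KO has 5.

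*Esrrb*, a factor of pluripotent and retinal cells (chromosome 12 from 87702067 to 87862578, plus strand, 160.5 kb), met no LAD in WT, where the nearest was 1122 kb from its start. In KO a LAD of 19.6 kb covered 12.2% of it, held 0 of 7 exons and lay 57.2 kb from the 5′ end. A pair of inner start sites of protein-coding transcripts, 87762594 and 87762833, fell in that LAD. Its relative *Esrra*, a factor of mitochondrial genes, was II. By the 5′ end of the gene it was the 1 II member farther from a LAD in KO, 711 kb against 702 kb in WT.

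*Nr2f1*, which encodes the developmental factor COUP-TF1 (chromosome 13 from 78328234 to 78339018, minus strand, 10.8 kb), met no LAD in WT. A KO-only DR of 33.1 kb, the edge of a KO LAD of 191 kb, covered 20.4% of the gene at its 3′ end with 1 of its 3 exons. On the other side the gene faced a WT LAD of 2664 kb, 13.7 kb before its start. *Nr2f2*, which encodes COUP-TF2, was II, with its start 116 kb from a LAD in WT and 50.7 kb in KO.

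The *Nr4a* genes, quickly induced by hormones and stress, took 3 classes. *Nr4a2* (chromosome 2 from 56959241 to 56976414, minus strand, 17.2 kb) was IP. A KO-only DR of 11.7 kb at the edge of a KO LAD covered 33.8% of it at its 3′ end, with exons 3 to 8. Its 5′ end lay 3.66 kb from a LAD in WT and 5.06 kb in KO, so it was nearer in WT while the 3′ end was in a LAD in KO only. Other starts of protein-coding transcripts, at 56967449 (the transcript with the most exonic bases) and 56965483, lay outside LADs in both genotypes. From these the KO LAD, which ends at 56965053, was nearer than any WT LAD, so the direction depended on the start used. *Nr4a3* (chromosome 4 from 48058025 to 48099319, plus strand, 41.3 kb) was PP, with 69.0% of the span in LADs in WT and 71.4% in KO. A WT LAD of 29.0 kb stood against KO LADs of 11.7 and 28.0 kb, and every uncovered difference was shorter than the 10 kb that a DR needs. An inner start site of a protein-coding transcript, at 48061986, lay in a LAD in KO only. *Nr4a1* was II, 335 kb from a LAD in WT and 327 kb in KO.

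The remaining orphan receptor genes were II. *Nr5a2* (LRH-1), an activator of bile acid synthesis genes, lay 268 kb from a LAD in WT and 68.5 kb in KO. *Nr5a1* and *Nr6a1*, neighbours 8.83 kb apart on chromosome 2, lay 380 and 167 kb away in WT and 305 and 91.7 kb in KO. *Nr2e3*, a factor of photoreceptors, had the shortest WT distance of the II members, 67.7 kb, and 67.6 kb in KO. *Nr2e1*, *Nr2c1*, *Nr2c2* and *Nr2f6* lay between 215 and 1416 kb in WT and between 66.3 and 194 kb in KO.

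The 2 receptors without a DNA-binding domain, which repress other receptors, differed as well. *Nr0b1* (DAX1), a gene of adrenal and gonad (X chromosome from 83437103 to 83441286, plus strand, 4.18 kb), was PP. LADs covered 60.4% of it in WT and 100% in KO, with its start 1.66 kb outside a WT LAD and inside a KO LAD. *Nr0b2* (SHP), which holds back bile acid synthesis in hepatocytes, was II, 1843 kb from a LAD in WT and 111 kb in KO.

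Over the 14 members in a LAD or DR, LADs covered more of the span in KO for 11 and less for *Rorb*, *Hnf4g* and *Rxrg*. Over all genes that were not II, 45.2% had more span in KO LADs, where genes wholly in LADs of both genotypes have no room for a difference. Over all 41 members, summed to 3178 kb, LADs covered 23.2% of the bases in WT and 28.9% in KO, against 38.3% and 42.3% of the bases of all protein-coding genes. WT-only DRs held 5.48% of the member bases and KO-only DRs 9.53%, close to 5.01% and 9.15% over all genes. Of 9 WT-only DRs on members, 7 lay inside a longer WT LAD, and 6 of the 7 were in *Rorb* and *Hnf4g*. Over all WT-only DRs, 64.8% lay inside a LAD. Of 14 KO-only DRs, 7 took up an entire KO LAD, 4 of them in *Nr3c2*, and 52.2% of all KO-only DRs did.

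Of the 351 exons of the members, 31 were in a LAD in KO only (9.18% of all exons of protein-coding genes were), 16 in WT only (3.1% of all exons), 24 in both (15.5% of all exons) and 280 in neither. Of the 16 exons in WT only, 8 belonged to *Rorb*. The gene start, which is the part nearest to the promoter, was in a LAD of KO and not of WT for 4 members (*Thrb*, *Hnf4g*, *Pgr* and *Nr0b1*), against 12.7% of all genes. It was in a LAD of both for *Rxrg*, against 20.1% of all genes, and for 0 members in WT only, against 2.62%. For the other 36 members it was in neither. The count in both depended on the gaps between LADs. With LADs joined across gaps of up to 50 kb, 7 members had the start in a LAD of both genotypes, and 58 exons were in both. Among the 12 members in a DR, the 5′ end itself changed place in *Thrb*, *Hnf4g* and *Pgr*, but only in *Thrb* did a DR cover it. In the others the DRs lay within the gene or at its 3′ end. Inner starts of protein-coding transcripts were covered too, by KO-only DRs in *Esr1*, *Esr2* and *Esrrb* and by a WT-only DR in *Hnf4g*. The 5′ ends of *Hnf4g* and *Pgr* came to lie in a KO LAD through differences too short for a DR. That direction is opposite to their class PI.

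The starts of the II members lay at a median of 380 kb from the nearest LAD in WT and 194 kb in KO. Over all II genes the medians were 409 and 131 kb. The start was nearer to a LAD in KO for 26 of 27 II members, and for 83.5% of all II genes. The ranges were 67.7 to 4324 kb in WT and 12.8 to 711 kb in KO. The longest WT distances, those of *Ppard*, *Rxra* and *Nr0b2*, ran from 1843 to 4324 kb, and those genes lay 111 to 344 kb from a LAD in KO. At the other end, *Nr2e3*, *Nr4a1*, *Nr1h4* and *Pparg* had nearly the same distance in both genotypes. For *Nr2e3* the nearest LAD was downstream in WT and upstream in KO, and from the gene span it lay 49.8 kb away in WT and 67.6 kb in KO. The only annotated start of a protein-coding transcript of *Nr2e3* lies 10.5 kb inside the gene. From there too a LAD was nearer in WT, so its place among the 26 rests on the 5′ end. Measured from the span, 25 II members were nearer to a LAD in KO and 2 were farther. A LAD within 100 kb of the span was present for 2 II members in WT and for 9 in KO, against 21.9% and 46.3% of all II genes.

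**Figure D4:**
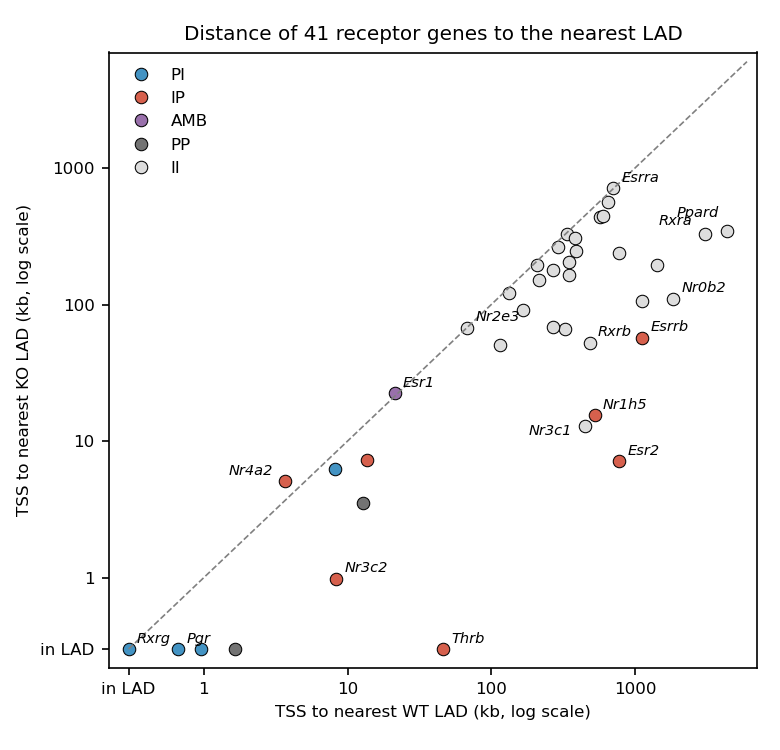
Distance from the start of each of the 41 receptor genes to the nearest LAD of WT (x axis) and of KO (y axis), in kb on log scales, coloured by class, with starts inside a LAD at the lower and left edge and a dashed line at equal distance. Of the 27 II members, 26 sit below the line, with *Esrra* (702 kb in WT and 711 kb in KO) as the exception.

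The surroundings of the receptor genes were described by the share of LADs in the 1 Mb centred on each. For the 27 II members the median share was 1.52% in WT and 9.28% in KO, and over all II genes it was 1.87% and 7.77%. It was higher in KO for 21 of the 27, and for 68.3% of all II genes. For the 14 members in a LAD or DR the median was 62.0% in WT and 65.4% in KO, against 65.3% and 69.2% over all genes that were not II. It was higher in KO for 7 of the 14, and for 56% of all such genes. *Thrb*, whose 5′ end was in a LAD in KO only, had 40.1% in WT and 35.9% in KO, so its surroundings held fewer LAD bases in KO. These values share libraries and, for neighbouring genes, bases.

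Of 13 members known for roles in liver, though not only there, 12 were II, with *Thrb* as the IP exception. Of 11 members known mainly outside the adult liver, 4 were II, 3 were PI (*Rorb*, *Pgr* and *Rxrg*), 3 were IP (*Esrrb*, *Esr2* and *Nr3c2*) and *Nr0b1* was PP. Over all members 65.9% were II and over all genes 56.6%, and 17 members, with *Esr1* among them, are in neither list. The lists also differ in long genes, and 67.8% of all genes over 100 kb met a DR. Those over 100 kb are *Thrb* and *Nr5a2* in the liver list and *Rorb*, *Esrrb*, *Nr3c2* and *Nr6a1* in the other. These lists were drawn up from general knowledge with earlier results of the data known, and the difference between them was not tested. Base composition moved with the classes too. The median GC content of the span was 49.9% over the II members and 42.8% over the 14 others, close to the medians of 48.6% and 42.5% over all genes of the same kinds.

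Genes that work with the receptors were taken from fixed lists, whose counts stand beside 56.6% II and 25.5% in a DR over all protein-coding genes and were not tested against them. Of 20 coregulators, 17 were II, and the others were parts of the nuclear receptor corepressor complex, *Tbl1x* (IP, 0% of the span in WT LADs and 12.01% in KO) and *Tbl1xr1* (PI, 2.10% and 0%), and the coactivator *Ncoa1* (AMB, 16.2% and 9.22%). Of 22 genes that make, inactivate or carry ligands, 18 were II. *Hsd11b2*, which shields the mineralocorticoid receptor from glucocorticoids, lay outside LADs in WT and wholly inside in KO, and *Cyp2r1*, a vitamin D hydroxylase of liver, had 0% in WT LADs and 68.9% in KO. *Dio2*, which activates thyroid hormone, lay wholly in a LAD in WT and 1.30% of it in KO, and *Cyp19a1*, the aromatase gene, had 0% and 24.1%. Of 22 hepatocyte target genes, 18 were II. The PXR target *Cyp3a11* was covered by LADs to 98.8% in WT and to 22.7% in KO. The LXR targets *Abca1* and *Mylip* had 0% in WT and 26.7% and 44.4% in KO, and the FXR target *Abcb11*, the bile salt export pump, 0% and 18.4%.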

How the data were processed

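LaminB1-DamID was made in 4 libraries, Dam-LaminB1 and Dam only for WT and *Tm7sf2*-KO, which were mapped to groups from their titles. The authors aligned the reads to mm9 and expressed each *DpnI* fragment as log2 of Dam-LaminB1 over Dam only. They segmented it into LADs with DNAcopy defaults. The submitters' processing notes name BWA and limma. The deposited files are interval lists, 2 of LADs and 2 of DRs, with positions as their only values and no count or signal, so no depth, interval or test was computed. Subtracting the LAD lists with a minimum of 10 kb returned the deposited DRs with 0 differences.

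Spans, exons and starts came from the GENCODE annotation of NCBIM37, with exons from the coding transcript of greatest exonic length and the start as the 5′ end of the gene. Distances are to the nearest LAD, 0 inside. Positions are 1-based. Python 3.11.15, numpy 2.4.6 and matplotlib 3.10.9 were used, and all interval operations were first tested on simulated data. Every member is named with its class, full values go to members that meet a LAD or DR, and the others are given by distance. The members and lists were chosen with earlier results of these data known. Alternatives changed the overlap, part of the gene, DR and LAD lengths, joining, chromosomes and transcripts.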

Additional observations from a re-analysis of the deposited data

How the results depend on the processing

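The position classes depended on how much of a gene had to meet a DR. PI counted 4 members, but 1 when at least 50% of the span was asked for, 0 by the start alone, 1 with LAD differences of any length and 2 with DRs of at least 20 kb. IP counted 7 members, but 1 at 50% of the span and 1 by the start alone. Over the 11 settings for the class, PI ranged from 0 to 4 and IP from 1 to 8. PP counted 2 members, but 5 at 50% of the span or with LADs joined across gaps of up to 50 kb, 4 with DRs of at least 20 kb, 0 with differences of any length, and 1 by the start alone or on autosomes. AMB ranged from 0 to 5. Of the 12 members in a DR, 0 kept their class throughout, and *Rorb* and *Nr3c2* left theirs only when the start alone was used. Of the 27 II members, 25 stayed II throughout, and *Rxrb* and *Nr2f2* were IP when the 100 kb centred on the gene were used. By the start of any protein-coding transcript, 8 members had a start in a LAD of KO only, against 4 by the 5′ end of the gene. With LADs of at least 20 kb, the median distance of the 41 starts to a KO LAD was 194 kb, against 91.7 kb with all LADs. The part of depth in the shorter KO LADs was not tested. Without chromosome 19, 8 exons were in WT LADs only, against 16, since *Rorb* is on it. Of 104 alternative values, 77 were within 1.5 times the value reported. No paired analysis was possible because each genotype has 1 pooled library per construct. Neither the error of a border nor the spread between animals is known.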
